A study of Mus musculus with 15 samples.

Results

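Fibroblast growth factor (FGF) ligands, their receptors and the genes of their feedback loop were followed through the aorta-gonad-mesonephros (AGM) region of the mouse embryo, where the first hematopoietic stem cells arise. The 40 genes were chosen by name. They comprise the 22 Fgf genes of the mouse, 5 receptor genes, the docking proteins Frs2 and Frs3, 9 feedback inhibitors and the ETS factors Etv4 and Etv5. Of these, 39 were found among the 28876 genes of the table, and Spry3 was not analysed here. Fgf16, Fgf21 and Fgf23 stayed below 0.5 RPM (reads per 1000000 reads assigned to genes) in all samples, and the remaining 36 were tested.

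The tissue came from untreated C57BL/6 embryos at E9.5 and E10.5. The aorta and the tissue around it were divided into a dorsal (AoD) and a ventral (AoV) piece, and from E10.5 embryos the paired urogenital ridges (UGR), the site of the mesonephros and future gonad, were kept apart. The 5 groups, E9.5 AoD, E9.5 AoV, E10.5 AoD, E10.5 AoV and E10.5 UGR, had 3 libraries each. Each library held RNA of many tissue types from between 15 and 34 pooled embryos, so fewer cells of a type and less RNA per cell cannot be told apart. Depth, as worked out from the values, ran from 33.7 to 48.6 megareads per library, which puts the level of 3 reads, the most that a count of 0 allows, at 0.0617 to 0.0889 RPM. Markers of the named tissues were present: summed over 7 endothelial genes, the level was 295 to 413 RPM in E9.5 AoD and 428 to 778 RPM in the other groups, and summed over 10 urogenital ridge genes it was 818 to 896 RPM in UGR. The same urogenital genes reached 716 to 751 RPM in E10.5 AoV, where 5 of the 10 were lower than in UGR and 2 higher by the thresholds given below.

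FGFs act on tyrosine kinase receptors together with heparan sulfate. Canonical FGFs bind FGFR1 to FGFR4 on neighbouring cells, endocrine FGFs need a Klotho co-receptor, and the FGF homologous factors (Fgf11 to Fgf14) stay inside the cell and bind sodium channels. The docking proteins FRS2 and FRS3 link the receptors to the RAS and ERK cascade, which induces Etv4, Etv5, Dusp6 and Sprouty genes. Sprouty and SPRED proteins, DUSP6 and IL17RD then dampen the cascade. In the embryo, FGF10 from mesenchyme signals to epithelium through FGFR2, FGF8 patterns the tailbud and somites, and FGF9 and FGF20 support the nephron progenitors.

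A change was called at an adjusted p below 0.05 (limma on log2(RPM + 0.1), Benjamini-Hochberg over all 18553 tested genes) and a fold change of at least 2, and fold changes below are on that scale. At least 1 of the 7 comparisons called 22 members, against 25.6% of all tested genes. They were 18 of the 19 tested Fgf genes, the receptors Fgfr2 and Fgfr4, the inhibitor Spry1 and Etv4. The 22 members gave 72 calls over the comparisons. With a pseudocount of 1 RPM in place of 0.1, 32 of these were lost, among them every call of Fgf1, Fgf2, Fgf3, Fgf4, Fgf7, Fgf12 and Fgf14, and the values are given with the genes below.

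Fgf10, the mesenchymal ligand of FGFR2, showed the largest dorsal-ventral difference among the members that were higher in E10.5 AoV. It lies at chr13:119458598-119580922 (NCBIM37, plus strand). The 3 E10.5 AoV libraries held 55.5, 56.9 and 61.6 RPM, whereas the E10.5 AoD libraries held 3.36, 5.42 and 4.18 RPM. UGR lay between them at 25.6, 22.3 and 26.3 RPM. At E9.5 the AoV libraries held 22.5, 25.6 and 24.7 RPM and the AoD libraries 11, 12 and 11.1 RPM. No library of one of these aorta groups reached into the range of another, and the E9.5 AoV and UGR ranges were alike. In E10.5 AoV, Fgf10 was 13.4-fold above E10.5 AoD (log2 difference 3.74, SE 0.13, limma adjusted p = 5.4e-11). The ventral excess was already called at E9.5 (log2 1.09, SE 0.13, limma adjusted p = 5.19e-06), although the difference was 0.96 and no longer called with quantile normalization. From E9.5 to E10.5 Fgf10 rose by 1.25 on the log2 scale in AoV and fell by 1.40 in AoD (SE 0.13 for each). Against UGR it was higher in E10.5 AoV (log2 1.23) and lower in E10.5 AoD (log2 -2.51).

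Fgf9, an epithelial and mesothelial ligand of FGFR1 to FGFR3, was distributed like Fgf10. Its levels were 7.52, 6.68 and 7.06 RPM in E10.5 AoV and 0.717, 1.08 and 0.592 RPM in E10.5 AoD. They were 3.2, 2.84 and 4.17 RPM in UGR, 2.87, 3.48 and 3.04 RPM in E9.5 AoV and 1.97, 2.71 and 1.24 RPM in E9.5 AoD. The highest group did not overlap with any other. E10.5 AoV exceeded E10.5 AoD 8.22-fold (log2 3.04, SE 0.24, limma adjusted p = 1.21e-07). Fgf9 rose with stage in AoV (log2 1.16) and decreased by 1.18 in AoD, where leaving out E9.5 AoD replicate 2 gave -0.93, below the fold threshold. Against UGR the difference of AoV was 1.05, and 0.94 without UGR replicate 2. These 3 calls were lost with a pseudocount of 1 RPM, at 0.97, -0.71 and 0.89 in that order.

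Fgf20, the close relative of Fgf9, was a low-level transcript. It was read at 0.970, 0.868 and 0.918 RPM in E10.5 AoV, and at 1.15, 0.636 and 1.61 RPM in UGR. In E10.5 AoD it was near the limit of detection, at 0.0425, 0.0899 and 0.183 RPM. E9.5 AoD held 0.537, 1.02 and 0.456 RPM and E9.5 AoV 0.478, 0.205 and 0.296 RPM. The E10.5 AoD libraries lay below all others in this series. AoV was 5.16-fold above AoD at E10.5 (log2 2.37, SE 0.35, limma adjusted p = 6.81e-05). With stage it rose by 1.31 on the log2 scale in AoV and fell by 1.90 in AoD. None of these 3 was called with a pseudocount of 1 RPM (0.80, 0.54 and -0.58), nor was its lower level in E10.5 AoD than in UGR (-0.92). Of the exon bases of Fgf20, 12% are shared with Efha2 on the opposite strand, and the library kit did not keep strand.

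Fgf5, a ligand of FGFR1 and FGFR2, was high in both ventral and urogenital tissue at E10.5. It measured 4.12, 4.32 and 4.63 RPM in E10.5 AoV and 4.27, 4.40 and 4.06 RPM in UGR. The other groups were lower, with 1.15, 2.01 and 1.66 RPM in E10.5 AoD, 1.69, 1.79 and 1.21 RPM in E9.5 AoV and 1.2, 1.34 and 1.03 RPM in E9.5 AoD. Fgf5 rose in AoV with stage (log2 1.44, SE 0.18, limma adjusted p = 1.2e-05) and was 1.42 higher in AoV than AoD at E10.5. AoV minus UGR was 0.04, with a 95% interval from -0.35 to 0.42.

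The homologous factors Fgf11 and Fgf12 had their highest level among the aorta groups in E10.5 AoV, and Fgf13 had its lowest there. Fgf11 stood at 7.5, 7.57 and 6.52 RPM in E10.5 AoV and 6.64, 6.76 and 8.14 RPM in UGR. It was 2.49, 2.71 and 2.82 RPM in E10.5 AoD, 1.5, 2.27 and 1.74 RPM in E9.5 AoV, and 1.2, 0.914 and 1.03 RPM in E9.5 AoD. Fgf11 thus rose with stage on both sides, by 1.93 in AoV (SE 0.14, limma adjusted p = 7.12e-08) and by 1.28 in AoD, the latter 0.84 and not called with a pseudocount of 1 RPM. AoV minus UGR was 0.01 (95% interval -0.30 to 0.32). Fgf12 reached 1.61, 1.76 and 1.61 RPM in E10.5 AoV and lay between 0.404 and 1.25 RPM in every other library. Its rise in AoV was called (log2 1.34, SE 0.24, limma adjusted p = 0.000349), but not with a pseudocount of 1 RPM (0.73). Fgf13, on chromosome X, was 10.1, 8.33 and 10.4 RPM in E9.5 AoD, 9.71, 9.90 and 10.4 RPM in E9.5 AoV and 8.51, 8.81 and 7.98 RPM in E10.5 AoD. It was lower in E10.5 AoV (5.97, 4.50 and 5.10 RPM) and lowest in UGR (3.35, 3.93 and 2.99 RPM). Only E10.5 AoD against UGR passed both thresholds for it (log2 1.28, SE 0.12, limma adjusted p = 5.63e-07). Fgf14 was highest in E9.5 AoD at 1.28, 1.21 and 2.01 RPM, against 0.501, 0.835 and 0.570 RPM in E9.5 AoV, and ranged from 0.504 to 1.09 RPM at E10.5. The E9.5 difference (log2 -1.11, SE 0.23, limma adjusted p = 0.00103) was -0.90 without E9.5 AoD replicate 3, -0.98 without E9.5 AoV replicate 1 and -0.60 with a pseudocount of 1 RPM.

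**Figure D1:**
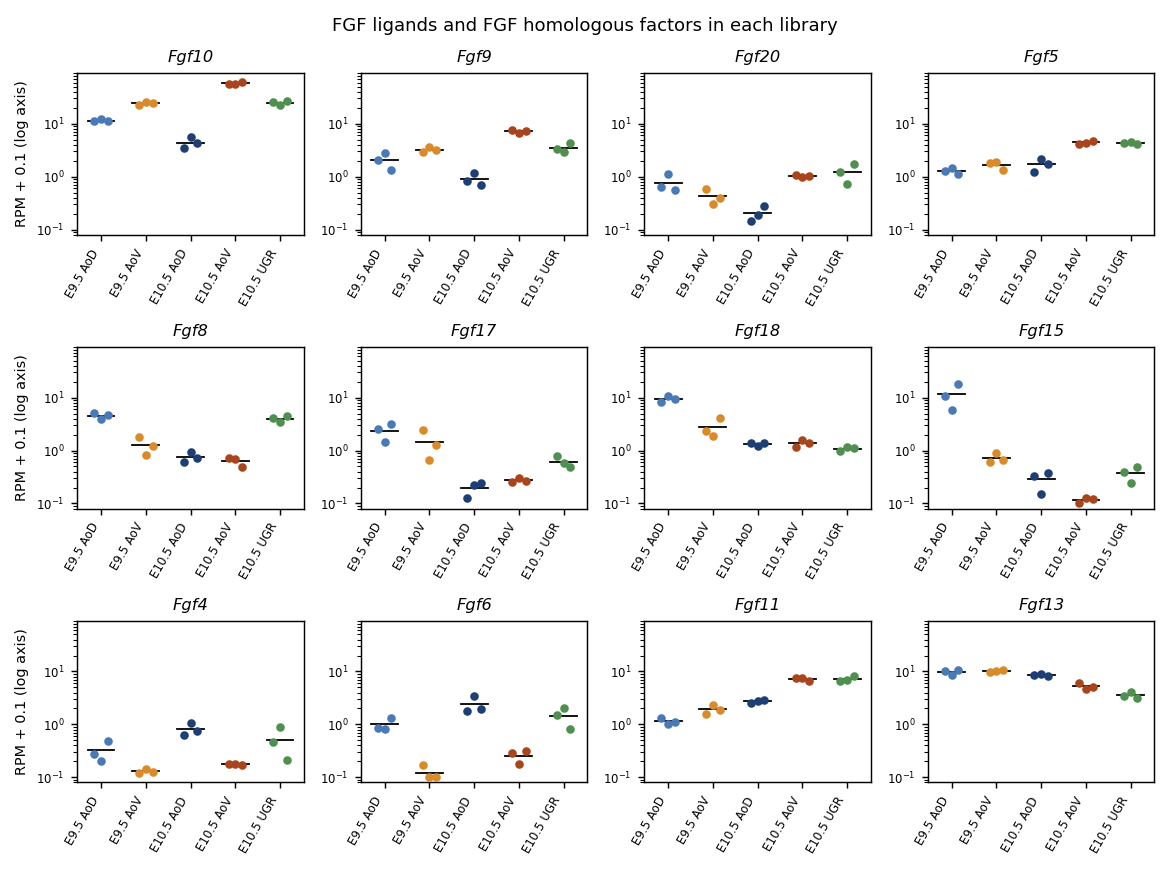
RPM + 0.1 on a log axis for 12 ligand and homologous factor genes, with 1 point for each of the 3 libraries of the 5 groups and a line at the group mean. Fgf10 and Fgf9 are highest in E10.5 AoV and lowest in E10.5 AoD, and Fgf8, Fgf17, Fgf18 and Fgf15 are highest in E9.5 AoD.

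The FGF8 subfamily had its highest mean in E9.5 AoD. Fgf8 measured 5.11, 3.76 and 4.60 RPM there, 1.73, 0.719 and 1.14 RPM in E9.5 AoV, 0.512, 0.853 and 0.616 RPM in E10.5 AoD and 0.623, 0.588 and 0.396 RPM in E10.5 AoV. UGR was again high at 4.03, 3.41 and 4.34 RPM, so that the E9.5 AoD and UGR ranges overlapped while all other libraries lay below 2 RPM. Fgf8 fell by 2.61 with stage in AoD (SE 0.26, limma adjusted p = 6.97e-07), was lower ventrally at E9.5 (log2 -1.89) and was lower than in UGR both in E10.5 AoV (log2 -2.68) and in E10.5 AoD (log2 -2.42).

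Fgf18, a further ligand of this subfamily, held 8.33, 10.4 and 9.11 RPM in E9.5 AoD and 2.28, 1.76 and 3.95 RPM in E9.5 AoV. All 9 libraries of E10.5 lay between 0.889 and 1.48 RPM. It fell by 2.83 with stage in AoD (SE 0.22, limma adjusted p = 5.61e-08), and the ventral level at E9.5 was below the dorsal one by a log2 difference of -1.84. Fgf17 measured 2.43, 1.34 and 3.1 RPM in E9.5 AoD and 2.39, 0.557 and 1.19 RPM in E9.5 AoV. At E10.5 it was at 0.0256, 0.125 and 0.142 RPM in AoD, 0.156, 0.205 and 0.163 RPM in AoV and 0.681, 0.473 and 0.394 RPM in UGR. E9.5 AoD and E9.5 AoV overlapped, and both exceeded their E10.5 counterparts. Fgf17 fell by 3.58 in AoD and by 2.23 in AoV (SE 0.41 for each). The change in AoV was -0.94 and not called with a pseudocount of 1 RPM, as was the difference of E10.5 AoD from UGR (-0.46).

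Fgf15, the mouse counterpart of human FGF19, had the largest change of all members. It was read at 5.64 to 18 RPM (11.4 ± 6.23, SD, n = 3) in E9.5 AoD, about 427, 210 and 841 reads in replicates 1 to 3. E9.5 AoV held 0.501, 0.788 and 0.570 RPM, E10.5 AoD 0.231, 0.0502 and 0.284 RPM, UGR 0.296, 0.144 and 0.394 RPM and E10.5 AoV 0, 0.0256 and 0.0233 RPM. Every library outside E9.5 AoD was below 1 RPM. Fgf15 fell by 5.27 with stage in AoD (SE 0.41, limma adjusted p = 5.96e-08) and was lower in E9.5 AoV than in E9.5 AoD (log2 -3.86). The E10.5 AoV libraries held about 2 reads in all. E9.5 AoV had 37.4 times that level (95% counting interval 10 to 314), UGR 15.8 times (4.03 to 137) and E10.5 AoD 11.4 times (2.83 to 100). The call between E10.5 AoV and E10.5 AoD (log2 -1.21, limma adjusted p = 0.0303) was lost when any of 5 libraries was left out, all but E10.5 AoD replicate 2, with log2 differences from -0.95 to -1.27. With a pseudocount of 1 RPM it was -0.22 and not called, nor were the fall of Fgf15 with stage in AoV (-0.67) and its difference of E10.5 AoV from UGR (-0.33). Antisense to Fgf15, Gm17685 shares 26.4% of its exon bases.

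Fgf3, Fgf4 and Fgf15 are neighbours on chromosome 7, in this order on the plus strand between positions 152023988 and 152086858 (NCBIM37), and their levels were unlike. Fgf3, a ligand of FGFR1 and FGFR2, measured 0.983, 0.645 and 1.69 RPM in E9.5 AoD and 1.07, 0.325 and 0.761 RPM in E9.5 AoV. It was 0.307, 0.301 and 0.473 RPM in E10.5 AoD, 0.337, 0.333 and 0.466 RPM in E10.5 AoV and 0.237, 0.247 and 0.282 RPM in UGR. The E9.5 AoD libraries lay above all E10.5 libraries, and the fall in AoD (log2 -1.32, limma adjusted p = 0.00429) was -0.98 without E9.5 AoD replicate 3 and -0.60 with a pseudocount of 1 RPM. Fgf4, which lies between the other two, instead rose with stage in AoD (log2 1.42, SE 0.41, limma adjusted p = 0.00858), which was 0.50 with a pseudocount of 1 RPM.

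Fgf4 and Fgf6, ligands made in the myotome, were lower in AoV than in AoD at both stages. E10.5 AoD minus UGR was not called for Fgf4 (log2 0.87, limma adjusted p = 0.113) or Fgf6 (log2 0.76, limma adjusted p = 0.11). Fgf6 held 1.69, 3.36 and 1.89 RPM in E10.5 AoD, 0.762, 0.725 and 1.22 RPM in E9.5 AoD and 1.39, 1.95 and 0.732 RPM in UGR. In E10.5 AoV it was 0.182, 0.0767 and 0.210 RPM and in E9.5 AoV 0.0684, 0 and 0 RPM. Both ventral groups lay below every library of the other 3. Fgf6 was lower in AoV than in AoD at E10.5 (log2 -3.21, SE 0.36, limma adjusted p = 4.35e-06) and lower than in UGR (log2 -2.45). It rose in AoD with stage (log2 1.24), where leaving out E10.5 AoD replicate 2 gave 0.95. With about 3 reads in E9.5 AoV in all, E9.5 AoD had 39.7 times its level (95% counting interval 13.2 to 195) and E10.5 AoV 6.78 times (2 to 35.8). The last of these was called in the fit (log2 1.07, limma adjusted p = 0.0241) but not without E9.5 AoV replicate 2 or 3 (0.94 for each) or E10.5 AoV replicate 1 (0.98) or 3 (0.91). With a pseudocount of 1 RPM only the difference at E10.5 between AoV and AoD was still called for Fgf6, and the others were just within 2-fold against UGR, -0.89 at E9.5, 0.78 with stage in AoD and 0.18 with stage in AoV. Fgf4 stayed below 1 RPM throughout, from 0.538 to 0.979 RPM in E10.5 AoD and from 0.113 to 0.781 RPM in UGR. In E10.5 AoV it was from 0.0699 to 0.0778 RPM, about 9 reads in all. E10.5 AoD had 9.73 times that level (95% counting interval 4.90 to 22.0). With a pseudocount of 1 RPM, Fgf4 was at -0.68 in that comparison, -0.24 at E9.5 and -0.37 against UGR, none of them called.

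Of the other low ligands, Fgf1 ranged from 0.210 to 1.02 RPM, Fgf2 from 0.105 to 0.849 RPM and Fgf7, a mesenchymal ligand of FGFR2, from 0 to 0.703 RPM. Fgf2 rose with stage in AoV (log2 1.07, limma adjusted p = 0.00738), which was 0.72 without E9.5 AoV replicate 3 and just below 1 without E10.5 AoV replicate 1 or 3. Of the exon bases of Fgf2, 18.3% are shared with Nudt6, Cetn4 and Bbs12. Fgf7 rose with stage in AoD (log2 1.28, limma adjusted p = 0.0272), with values of 0.98 without E9.5 AoD replicate 3 and 0.97 without E10.5 AoD replicate 2. Fgf1 was lower in E10.5 AoV than in UGR (log2 -1.03, limma adjusted p = 0.0239), which was not called without E10.5 AoV replicate 2 (-1.03) or 3 (-0.67) or UGR replicate 1 (-1.04) or 2 (-0.97). These 3 differences, with a pseudocount of 1 RPM, were 0.36, 0.36 and -0.43 and not called. Fgf22 lay between 0.0915 and 0.526 RPM and was called in none of the 7 comparisons. Among the 3 members below 0.5 RPM everywhere, the highest library was 0.213 RPM for Fgf23, 0.156 RPM for Fgf16 and 0.0737 RPM for Fgf21. Fgf16 had about 14 reads in E10.5 AoV, 9 in UGR and at most 1 in each other group.

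Among the receptors, Fgfr4 changed most. It lies at chr13:55254001-55270120 (NCBIM37, plus strand). E9.5 AoV held 12.5, 14.1 and 12.3 RPM, UGR 8.53, 9.15 and 7.80 RPM, E9.5 AoD 4.08, 4 and 3.55 RPM, E10.5 AoD 3.79, 4.34 and 3.79 RPM and E10.5 AoV 2.21, 2.35 and 2.28 RPM. The order of the groups was without overlap except between the dorsal stages. Fgfr4 was higher in E9.5 AoV than in E9.5 AoD (log2 1.72, SE 0.09, limma adjusted p = 3.16e-09) and fell by 2.45 with stage in AoV (limma adjusted p = 1.2e-10), against 0.03 in AoD (95% interval -0.16 to 0.23). It was lower than in UGR in E10.5 AoV (log2 -1.85) and in E10.5 AoD (log2 -1.08), the latter not called with quantile normalization (-0.99) or a pseudocount of 1 RPM (-0.93).

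Fgfr2, the receptor of FGF10 and FGF7, was lowest where Fgf10 was highest. E10.5 AoV held 74.8, 67.4 and 73.5 RPM, and every other library was at 108 RPM or more. The values were 108, 110 and 121 RPM in E9.5 AoD, 137, 142 and 135 RPM in E9.5 AoV, 138, 145 and 130 RPM in E10.5 AoD and 138, 133 and 132 RPM in UGR. The difference of E10.5 AoV was -0.94 from E9.5 AoV (limma adjusted p = 5.81e-09), -0.94 from E10.5 AoD and -0.90 from UGR, each within a 2-fold change and so not called. Gene counts do not separate the epithelial and mesenchymal splice forms of Fgfr2, which bind different ligands.

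Fgfr1 was the most abundant receptor, from 154 to 246 RPM, and none of its differences reached 2-fold. Fgfr3 was 50.4 ± 8.40 RPM (SD, n = 3) in E9.5 AoD and 26.6 ± 3.62 RPM in E10.5 AoD (log2 -0.92, limma adjusted p = 2.72e-05). Fgfrl1, a receptor-like protein without a kinase domain, was 52.4 ± 4.29 RPM in E9.5 AoD and 85.6 ± 3.35 RPM in E10.5 AoD (log2 0.71, limma adjusted p = 1.53e-07). Neither passed the fold threshold in any of the 7 comparisons. Frs2 ranged from 52.9 to 90.5 RPM and Frs3 from 4.02 to 7.10 RPM, with no call for either.

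**Figure D2:**
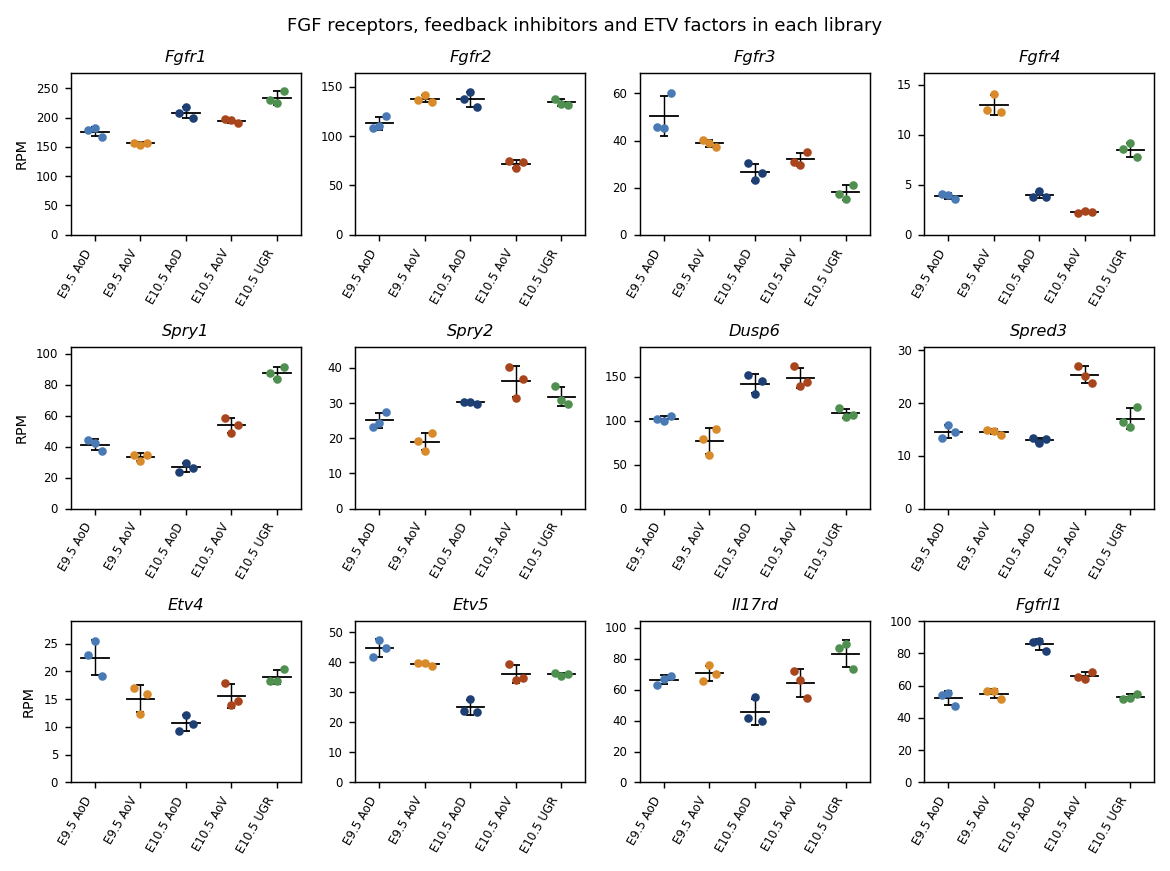
RPM on linear axes that start at 0 for 12 receptor, feedback and ETV genes, with 1 point per library, a line at the mean and error bars of 1 SD (n = 3). Fgfr2 is lowest in E10.5 AoV, Fgfr4 is highest in E9.5 AoV, and Spred3 is highest in E10.5 AoV.

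Among the feedback inhibitors, Spry1 was the only one called. It stood at 58.5, 48.8 and 53.6 RPM in E10.5 AoV, 23.7, 29.4 and 26.4 RPM in E10.5 AoD and 87.7, 83.6 and 91.2 RPM in UGR. At E9.5 it was 34.5, 30.4 and 34.6 RPM in AoV and 44.3, 42.1 and 37.1 RPM in AoD. The order E10.5 AoD, E10.5 AoV, UGR was without overlap. Spry1 in E10.5 AoD was lower than in UGR (log2 -1.72, SE 0.09, limma adjusted p = 1.32e-09). Its excess in AoV over AoD (log2 1.02, SE 0.09, limma adjusted p = 3.73e-07) stood at the fold threshold. The excess was 0.99 and not called with quantile normalization or a pseudocount of 1 RPM, and was not called with median-ratio scaling. It was 0.94 without E10.5 AoD replicate 1 and 0.95 without E10.5 AoV replicate 1.

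The other inhibitors differed by less than 2-fold in every comparison. Spred3, an inhibitor of RAF activation, was highest in E10.5 AoV, with 27.1, 25.2 and 23.9 RPM in E10.5 AoV and values from 12.4 to 19.3 RPM in the other 12 libraries (E10.5 AoV minus AoD, log2 0.96, limma adjusted p = 3.75e-07). Dusp6, the ERK phosphatase, was 149 ± 11.7 RPM in E10.5 AoV and 77.0 ± 15.1 RPM in E9.5 AoV (log2 0.96, limma adjusted p = 4.22e-06). Spry2 was 36.2 ± 4.35 RPM and 19.0 ± 2.45 RPM in the same groups (log2 0.92). Il17rd (Sef) ranged from 39.5 RPM in E10.5 AoD to 89.9 RPM in UGR. Spred1 lay between 110 and 161 RPM, Spred2 between 61.2 and 83.9 RPM, and Spry4 between 6.56 and 12.3 RPM.

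Of the ETS factors, Etv4 fell with stage in AoD and Etv5 moved less. Etv4 measured 22.9, 25.4 and 19.2 RPM in E9.5 AoD, 17.0, 12.4 and 15.9 RPM in E9.5 AoV, 9.25, 12.2 and 10.6 RPM in E10.5 AoD, 18, 14 and 14.7 RPM in E10.5 AoV and 18.2, 18.3 and 20.4 RPM in UGR. E10.5 AoD lay below every other library, and E9.5 AoD, with the highest mean, overlapped with UGR. The fall in AoD (log2 -1.07, SE 0.14, limma adjusted p = 1.07e-05) was -0.98 without E9.5 AoD replicate 2 and -0.97 without E10.5 AoD replicate 1. Etv5 was 44.7 ± 2.95 RPM in E9.5 AoD and 25.1 ± 2.45 RPM in E10.5 AoD (log2 -0.83, limma adjusted p = 1.88e-07), below the fold threshold.

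Promoter sequence is shown for 3 members, Spred3 and Dusp6 as feedback genes close to the fold threshold and Fgf10 as the ligand with the largest ventral excess. RefSeq windows from 250 bases before to 50 after the start (GRCm38.p6, a later build than the table's) were found for 30 of the 40 members. Both strands were searched for TGAATGAA and TGAATGGA, which are among the octamers bound by the repressor Capicua, which ERK signalling relieves. They were also searched for AGGAAG and CCGGAAG, which hold the ETS core. Other forms of the Capicua octamer were not searched, so a window without a match, or that of Dusp6, can still hold one. TGAATGAA was in 1.30% of all 32851 windows and, among the members, in those of Spred3 and Fgf21. TGAATGGA was in 1.21% of windows and in that of Fgf23. AGGAAG was in 35.4% of windows and in those of 9 members, among them Dusp6, Etv5, Fgfr2 and Fgfr4, and CCGGAAG was in 8.86% and in those of Fgfrl1 and Frs2. A match is a description of the letters only. The 250 bases before the start follow, read along the gene's strand with the match in capitals: at position -10 in Spred3, at position -210 on the opposite strand in Dusp6, and no match in Fgf10. They cover chr7:29168648-29168897 (minus strand), chr10:99262981-99263230 (plus strand) and chr13:118714449-118714698 (plus strand).
Spred3: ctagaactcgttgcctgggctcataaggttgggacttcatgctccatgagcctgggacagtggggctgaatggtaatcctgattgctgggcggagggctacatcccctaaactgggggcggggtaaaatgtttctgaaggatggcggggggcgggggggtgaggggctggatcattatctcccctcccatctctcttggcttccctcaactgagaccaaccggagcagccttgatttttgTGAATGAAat
Dusp6: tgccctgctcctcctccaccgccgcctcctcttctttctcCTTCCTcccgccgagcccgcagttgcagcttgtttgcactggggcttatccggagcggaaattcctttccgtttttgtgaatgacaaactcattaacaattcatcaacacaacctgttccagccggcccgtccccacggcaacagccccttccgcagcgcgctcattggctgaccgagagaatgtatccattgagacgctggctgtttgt
Fgf10: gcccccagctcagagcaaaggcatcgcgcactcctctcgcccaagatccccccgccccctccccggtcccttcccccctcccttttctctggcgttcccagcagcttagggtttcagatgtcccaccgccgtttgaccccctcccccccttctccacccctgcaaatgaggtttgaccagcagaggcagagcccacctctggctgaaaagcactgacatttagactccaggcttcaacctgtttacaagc

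Levels of different genes were compared per kilobase of merged exons. In every group the highest member was Dusp6, at 53.2 ± 4.2 RPM per kilobase (SD, n = 3) in E10.5 AoV and 27.5 ± 5.39 in E9.5 AoV. Fgfr1, Fgfrl1 and Spred1 followed among the first 5 of each group, at 18.2 to 32.2 RPM per kilobase. The leading ligand differed. Per kilobase, Fgf10 led the ligands in E10.5 AoV (12.6 ± 0.69), E9.5 AoV (5.27 ± 0.35) and UGR (5.38 ± 0.46). In E9.5 AoD the first were Fgf18 (7.82 ± 0.88) and Fgf15 (6.29 ± 3.44), which did not differ beyond their spread, and Fgf8 (3.33 ± 0.51). In E10.5 AoD no ligand exceeded Fgf6 (1.88 ± 0.74) and Fgf18 (1.02 ± 0.08), and Fgf10 was at 0.94 ± 0.23. The E10.5 AoD tissue thus had the lowest level of its leading ligand among the 5 groups.

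Between stages in AoV, 11 of 36 members were called, 8 higher and 3 lower at E10.5, against 11% of all tested genes (6.04% higher, 4.99% lower). The higher ones were Fgf11, Fgf5, Fgf12, Fgf20, Fgf10, Fgf9, Fgf2 and Fgf6, and the lower ones Fgf15, Fgfr4 and Fgf17, of which Fgf15 decreased by 2.62. The median log2 difference was 0.27 over the members and 0.00 over all tested genes. Without the fold threshold 22 members passed (46% of all tested genes), and 24 had group ranges that did not overlap (55%). Of 62 other genes of the pathway that were tested, 8 were higher and 4 lower. Klb, the co-receptor of endocrine FGFs, fell by 4.51 (limma adjusted p = 5.81e-09), from 4.55 RPM to 0.101 RPM. Fgfbp1, which releases FGFs from the matrix, fell by 3.24, from 1 to 0.0163 RPM. That mean is below the level of 3 reads, so the size of the fall depends on the pseudocount of 0.1 RPM. T (Brachyury), a mesodermal FGF target, fell by 2.32.

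Between stages in AoD, 13 members were called, 4 higher and 9 lower, against 12.6% of all tested genes (8.6% higher, 4% lower). The median log2 difference was -0.10 over the members and 0.00 over all tested genes. Without the fold threshold 25 passed (57.8% of all genes), and 29 had ranges without overlap (60.7%). The lower ones held all 3 tested members of the FGF8 subfamily, both of the FGF9 subfamily, Fgf15, Fgf10, Fgf3 and Etv4, and the higher ones were Fgf4, Fgf7, Fgf11 and Fgf6. Among the other pathway genes, 10 were higher and 4 lower. The 3 largest were the immediate early gene Fos (log2 2.81, from 148 to 955 RPM), the mesodermal factor Tbx6 (fell by 2.77) and Fgfbp1 (fell by 2.39). The Fgfbp1 mean in E10.5 AoD, 0.0327 RPM, was again below the level of 3 reads. Fos also rose in AoV (log2 2.17), as did the immediate early factor Egr1 (2.04 in AoV, 2.22 in AoD). Of 23 listed transducers, only the docking protein Gab2 was called, higher in both stage comparisons (log2 1.14 in AoV and 1.05 in AoD).

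At E9.5, 8 members were called between AoV and AoD, 2 higher and 6 lower in AoV, against 11.8% of all tested genes (8.32% higher, 3.47% lower). The median was -0.18 over the members and 0.02 over all. The adjusted p alone passed 21 members (47.7% of all genes), and 22 did not overlap between the groups (51.3%). Fgfr4 and Fgf10 were higher, and Fgf15, Fgf6, Fgf8, Fgf18, Fgf4 and Fgf14 lower. Of these, the call for Fgf4 (log2 -1.21) was lost without E9.5 AoD replicate 3 (-0.86) or E9.5 AoV replicate 1 (-1.16) or 3 (-1.17). Among the other pathway genes 2 were higher and 2 lower, with the FGF carrier Fgfbp3 lower (log2 -3.78, 2.28 against 34.2 RPM), Klb higher (log2 3.12) and T lower (log2 -1.49).

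At E10.5, 9 members were called between AoV and AoD, 6 higher and 3 lower in AoV, against 10.1% of all tested genes (5.81% higher, 4.29% lower). The median was 0.09 over the members and 0.02 over all. The adjusted p alone passed 20 members (35.5% of all genes), and 25 did not overlap (49.5%). Fgf10, Fgf9, Fgf20, Fgf5, Fgf11 and Spry1 were higher, and Fgf6, Fgf4 and Fgf15 lower. Among the other pathway genes 2 were higher and 3 lower. T was lower in AoV (log2 -4.93, limma adjusted p = 1.81e-10), and the heparan sulfate proteoglycan Sdc4 was higher (log2 1.81, 24.4 against 6.93 RPM). Spsb1 was lower (log2 -1.73).

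Against UGR, 8 members were called in E10.5 AoV, 2 higher and 6 lower (7.57% of all tested genes, 3.84% higher and 3.73% lower), and 10 in E10.5 AoD, 1 higher and 9 lower (11.3%, 4.76% higher and 6.56% lower). Both comparisons share the UGR libraries. The medians over the members were 0.00 for AoV and -0.14 for AoD, and over all genes -0.05 and -0.06. The adjusted p alone passed 19 members in AoV (29.1% of all genes) and 20 in AoD (39.2%), and 25 (48.6%) and 24 (50.9%) did not overlap with UGR. In AoV, Fgf10 and Fgf9 were higher, and Fgf8, Fgf6, Fgfr4, Fgf15, Fgf4 and Fgf1 lower, of which the Fgf4 call (log2 -1.33) was lost without any 1 of the 3 E10.5 AoV libraries or UGR replicate 1 or 2 (-0.83 to -1.35). In AoD, Fgf13 was higher, and Fgf20, Fgf10, Fgf8, Fgf9, Spry1, Fgf17, Fgf11, Fgf5 and Fgfr4 lower. The other pathway genes gave 2 higher and 1 lower in AoV, namely Ier3 (log2 1.44), Etv1 (1.08) and Ccnd1 (-1.07). They gave 5 higher and 2 lower in AoD, led by T (log2 4.54), Sdc4 (-2.11) and Flrt3 (-1.47), a membrane protein that binds FGF receptors.

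**Figure D3:**
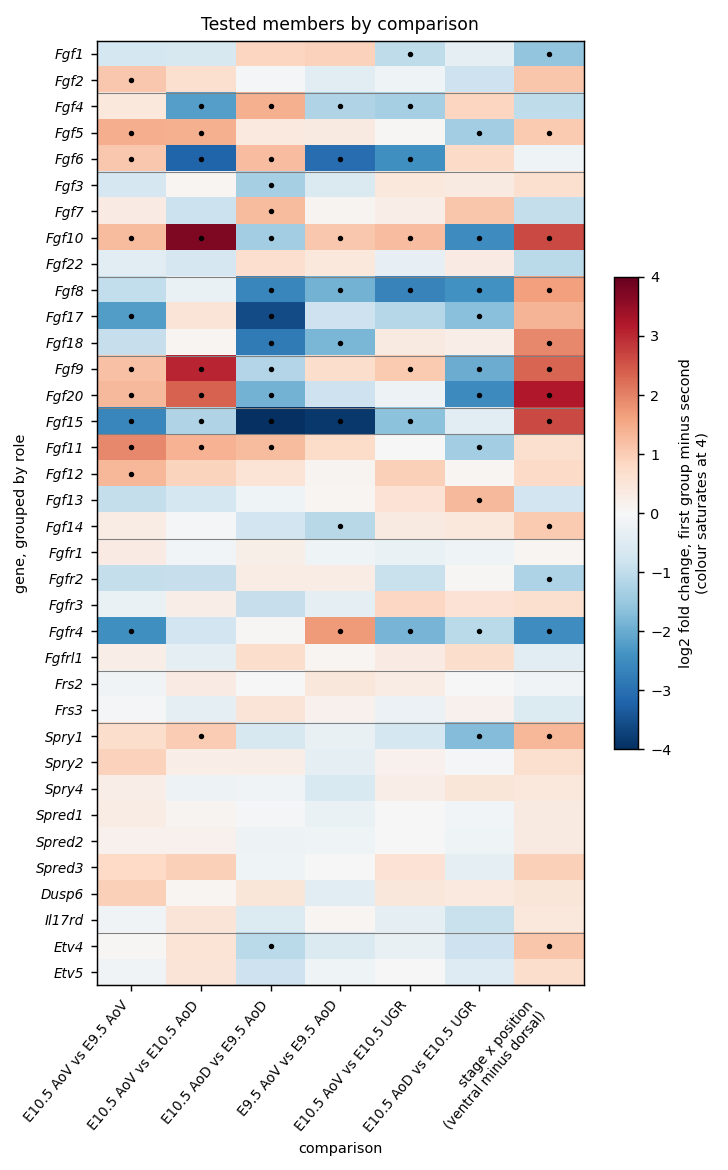
Log2 fold change (colour, saturating at 4) of the 36 tested members in rows, grouped by role, in the 7 comparisons in columns, with a dot where the call passed both thresholds. Dots lie mostly on rows of Fgf genes. The columns of E10.5 AoD against E9.5 AoD and of the interaction hold the most, 13 each over all rows.

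Whether ventral and dorsal tissue changed differently with stage was tested with the interaction of stage and position, the change in AoV minus the change in AoD. It was called for 13 members, 10 higher and 3 lower, against 11% of all tested genes (4.12% higher, 6.89% lower), with a median of 0.64 over the members and 0.02 over all. Without the fold threshold it was 24 members (28.1% of all genes). The members whose change was more positive ventrally were Fgf20, Fgf10, Fgf15, Fgf9, Fgf18, Fgf8, Spry1, Etv4, Fgf5 and Fgf14. Fgf20, Fgf10 and Fgf9 rose in AoV and fell in AoD. Fgf8 and Fgf18 fell in AoD and had differences of -0.97 and -0.92 in AoV, and Fgf15 fell on both sides. The ventral fall of Fgf15, to about 2 reads, was limited by the pseudocount of 0.1 RPM, so a larger dorsal fall is not shown for it. The 3 members with a more negative ventral change were Fgfr4, Fgf1 and Fgfr2 (Fgfr2 -1.23, SE 0.08, limma adjusted p = 6.25e-08), with Fgfr2 at -0.94 in AoV and 0.29 in AoD. With a pseudocount of 1 RPM, Fgf5 (0.83), Fgf14 (0.58) and Fgf1 (-0.63) were not called. Among the other pathway genes 2 were higher and 4 lower, led by T (-3.44), Klb (-3.18) and Fgfbp3 (2.09).

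**Figure D4:**
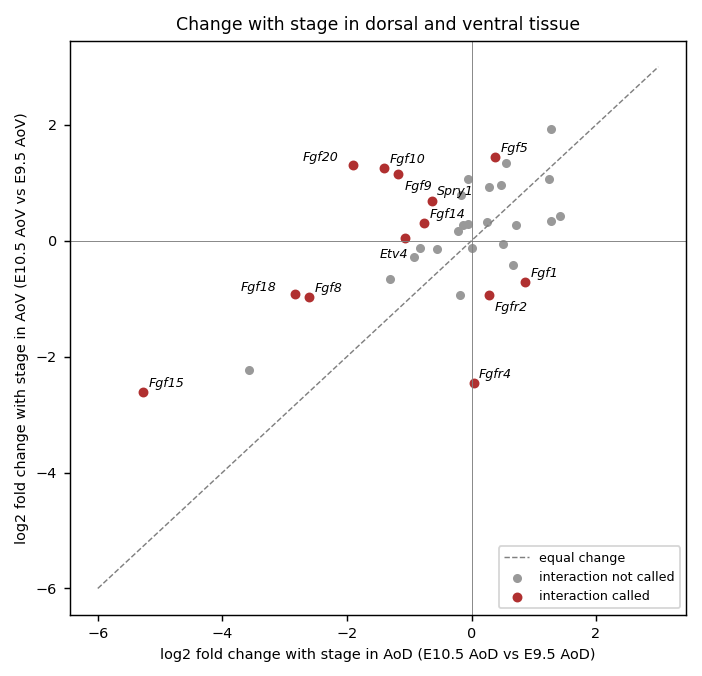
Log2 fold change with stage (E10.5 minus E9.5) in AoD (horizontal) and AoV (vertical) for the 36 tested members, 1 point each, with the line of equal change. The 13 members whose interaction was called are named in red, with 10 above the line and 3 below.

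Markers of other tissues moved with several of these results, and their part in the results was not tested. Summed over 9 neural tube genes, the level was 294, 224 and 463 RPM in the E9.5 AoD libraries, from 45.5 to 81.9 RPM in E10.5 AoD and from 5.86 to 20.4 RPM in the other 3 groups. Fgf15 and Fgf17 were highest in the E9.5 AoD library with the most and lowest in that with the least, whereas Fgf18 was highest in that with the least and Fgf8 was highest in the library with the middle sum. All 9 neural tube genes were called lower in E9.5 AoV than in E9.5 AoD, and 7 fell in AoD with stage. Of 7 presomitic and tailbud genes, 5 fell with stage on each side and T rose in AoD. Their sum was 36.2 to 51.6 RPM in E9.5 AoD, 44.2 to 53.7 RPM in E10.5 AoD, 28.5 to 36.6 RPM in E9.5 AoV, 15.5 to 16.9 RPM in E10.5 AoV and 8.14 to 10 RPM in UGR. In E10.5 AoD this was mostly T (mean 33.9 RPM) and Rspo3 (14.5 RPM), and the 5 genes that fell there averaged 0.0250 to 0.371 RPM. Summed over 3 notochord genes, the level was 116 to 130 RPM in E10.5 AoD and 1.62 to 2.14 RPM in E10.5 AoV. It was 46 to 56.3 RPM in E9.5 AoD, 48.3 to 64 RPM in E9.5 AoV and 1.05 to 1.38 RPM in UGR. Of the 3, Shh rose with stage in AoD (log2 1.60), as did T (log2 1.13), whereas Foxa2 and Noto fell. Shh and T were also both lower in E10.5 AoV than in E10.5 AoD (log2 -6.03 and -4.93), as was Foxa2 (log2 -3.84). Which tissue the T reads came from was not tested. Summed over 9 somite, sclerotome and myotome genes, the level was 508 to 514 RPM in E9.5 AoD, 590 to 744 RPM in E10.5 AoD, 114 to 191 RPM in UGR, 65.8 to 88.2 RPM in E9.5 AoV and 39.0 to 46.3 RPM in E10.5 AoV.

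Gut endoderm and liver genes, 7 in all, summed to 524 to 746 RPM in E9.5 AoV, 54.6 to 56.5 RPM in UGR and 12.9 to 45.9 RPM in the other groups. All 7 fell in AoV with stage, as did Fgfr4 and Klb. Fgfr4 was read at 3.55 to 4.34 RPM in the dorsal libraries, where that sum was 12.9 to 45.9 RPM. The 10 urogenital ridge genes summed to 716 to 751 RPM in E10.5 AoV and 65.4 to 94.3 RPM in E10.5 AoD, with 9 of them called higher in AoV. Their sum was 818 to 896 RPM in UGR. Against UGR, 5 of the 10 were called lower in E10.5 AoV and 2 higher, with a median log2 difference of -0.97. Of the other lists, 4 of 5 smooth muscle and perivascular genes, 3 of 5 limb bud genes and 3 of 6 germ cell genes were called higher in E10.5 AoV than in UGR, as were Fgf10 and Fgf9. In E10.5 AoV and UGR, the smooth muscle sum was 794 to 862 and 136 to 181 RPM, the limb bud sum 166 to 173 and 108 to 120 RPM, and the germ cell sum 82.8 to 87.3 and 35.2 to 38.7 RPM. Against E10.5 AoD, 5 germ cell genes and 3 limb bud genes were called higher in E10.5 AoV, with AoD sums of 29.6 to 30.2 RPM and 173 to 191 RPM. The notochord gene Noto was at 0 in all E10.5 AoV libraries, and no other gene in these lists was at 0 in all libraries of a group.

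**Figure D5:**
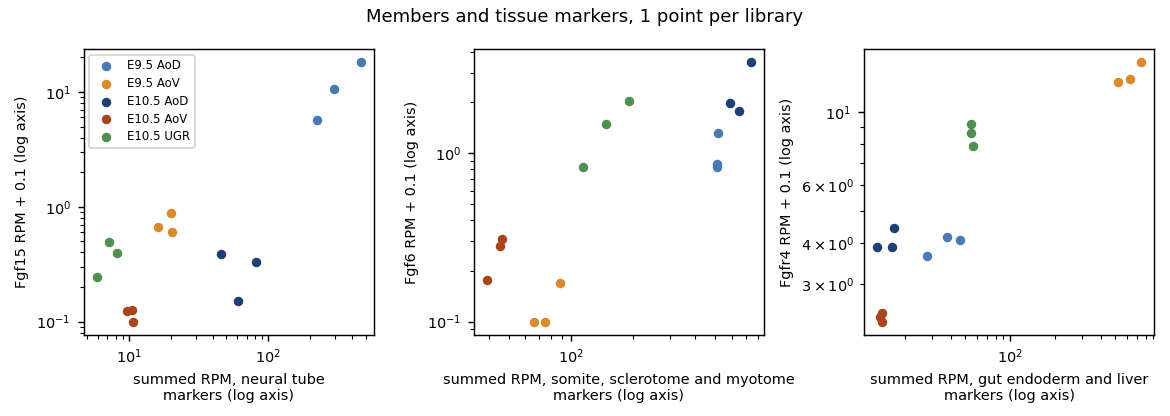
RPM + 0.1 of Fgf15, Fgf6 and Fgfr4 (vertical, log axis) against the summed RPM of neural tube, somite and gut endoderm and liver markers (horizontal, log axis), 1 point per library. Fgf15 exceeds 5 RPM only in the 3 E9.5 AoD libraries, where the neural tube sum is 224 to 463 RPM.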

How the data were processed

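RNA of 15 libraries in 5 groups of 3 was sequenced as 50-base single-end reads from an unstranded TruSeq kit. The authors aligned reads to NCBIM37/mm9 with TopHat and Bowtie 0.12.3 and counted them over Ensembl genes with GeneProf, dividing ambiguous reads in proportion. The deposited values are RPM, rounded by the authors to 3 significant digits and not adjusted for gene length. The 12 columns of the authors' DESeq comparisons (log2 fold changes and adjusted p-values for 6 comparisons) were not used.

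The table holds no counts, so log2(RPM + 0.1) was fitted with limma 3.58.1 (R 4.3.3), as 5 group means from all 15 libraries with an intensity trend, in place of the count model of the study. Genes at 0.5 RPM or more in at least 1 sample, 18553, were tested. Changes were called at a Benjamini-Hochberg adjusted p below 0.05 and a fold change of 2 or more. On simulated data for 17972 genes, 100 were changed by a log2 of 1.5 and 100 by 2 in E10.5 AoV. E10.5 AoV vs E9.5 AoV recovered all 100 of each size and called 1 unchanged gene. The changed genes were drawn only from those averaging 1 RPM or more, with the same dispersion for every gene and independent libraries. Recovery of lower genes or of changes near 2-fold was therefore not simulated. Alternatives were a pseudocount of 1 RPM, no or a stricter filter, quantile and median-ratio scaling, only the groups compared, a replicate block and leaving out each library.

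Depth came from the step between low values, of which 60.2% to 66.5% were whole reads within 0.05 reads, so whole reads were not recovered. Reads quoted are approximate, and counting intervals (95%, exact binomial) and limits cover counting error only. Replicates correlated at 0.993 to 0.997 (Pearson, log2). Same-numbered libraries deviated together in all 3 E9.5 AoD and AoV pairs (correlations 0.45, 0.35 and 0.19). Every same-numbered pair of E10.5 groups was also positive, from 0.04 to 0.34. Groups of the same stage may thus be paired by number, and the main fit had no block for it. Across all 30 same-numbered pairs, which include pairs of different stages, the median was 0.06 and 11 exceeded 0.1. Positions and exon lengths are from GENCODE on NCBIM37. The members and lists were chosen with earlier results of these data known. Members called in at least 1 comparison and at 1 RPM or more on average in a group are given by sample, with ranges for some groups. The others are given mostly as ranges or means, and up to 3 called genes of the other pathway lists are named per comparison.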

Additional observations from a re-analysis of the deposited data

Results flagged for a closer look

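A different change with stage in ventral and dorsal tissue was called for 13 members, by the interaction of stage and position (AoV minus AoD, log2 scale, limma). The difference was 3.2 for Fgf20 (SE 0.49, limma adjusted p = 0.00018), 2.65 for Fgf10 (SE 0.18, 9.55e-08) and 2.34 for Fgf9 (SE 0.34, 0.00011). These 3 ligands rose ventrally and fell dorsally. Fgf18 gave 1.91 (SE 0.31, 0.000262) and Fgf8 1.64 (SE 0.36, 0.00319), both with a larger fall in AoD. For Fgf15 the difference was 2.65 (SE 0.57, 0.00272). Its ventral E10.5 level rests on about 2 reads, and the pseudocount limited its ventral fall. A larger dorsal fall is therefore not shown for Fgf15.

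Spry1 gave 1.33 (SE 0.13, limma adjusted p = 2.45e-06), Etv4 1.11 (SE 0.19, 0.000523), Fgf5 1.06 (SE 0.25, 0.00551) and Fgf14 1.05 (SE 0.33, 0.0249). The last 3 lay near the threshold. Etv4 was at 0.98 without E9.5 AoV replicate 2. Fgf5 was at 0.98 without E9.5 AoD replicate 2, 0.90 without E9.5 AoV replicate 3 and 0.85 without E10.5 AoD replicate 1. Fgf14 lost its call without E9.5 AoD replicate 3 (0.84), E9.5 AoV replicate 1 (0.92) or 3 (1.0), E10.5 AoD replicate 1 (1.03) or 3 (1.02), or E10.5 AoV replicate 1 (0.84).

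In the other direction stood Fgfr4 at -2.49 (SE 0.13, limma adjusted p = 1.63e-08), Fgf1 at -1.58 (SE 0.45, 0.0158) and Fgfr2 at -1.23 (SE 0.08, 6.25e-08). Summed gut endoderm and liver markers fell in AoV beside Fgfr4, and the part of such markers in these differences was not tested.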

How the results depend on the processing

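Of 72 calls of a member in a comparison, 37 held in every alternative run, 35 were lost in at least 1, and none reversed. The pseudocount took away 32 of the calls: at 1 RPM, 4 members were called between stages in AoV (11 as reported), 5 between AoV and AoD at E10.5 (9), 6 between stages in AoD (13), 5 between AoV and AoD at E9.5 (8) and 3 between AoV and UGR (8), since a larger pseudocount shrinks the fold of low genes. Without a fold threshold the counts were 22, 20, 25, 21 and 19 in that order, 20 for AoD against UGR (10) and 24 for the interaction (13). Leaving out 1 library at a time gave 9 to 15, 7 to 10, 11 to 14, 7 to 10, 6 to 8, 10 to 13 and 11 to 15. With a replicate block the counts were 11, 9, 13, 8, 9, 11 and 13, gaining Fgf17 in AoV against UGR and Fgf7 in AoD against UGR and losing none. A block fitted on the E9.5 groups alone, added after seeing the data, kept the same 8 members. Numbers were closest to their own number in 11 of 15 libraries, a hint from the data and not from the design. At a limit of 1 RPM, 7 members were below it in all samples, and at 0.25 RPM 3 were.

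Depth limits the ligands near 3 reads (Fgf4 and Fgf6 ventrally, Fgf15 in E10.5 AoV, Fgf17 and Fgf20 in E10.5 AoD): absence cannot be read from them. Spry1 in E10.5 AoV against AoD (0.99), Fgf10 at E9.5 (0.96) and Fgfr4 in E10.5 AoD against UGR (-0.99) stood at the fold threshold and lost it under quantile normalization. Median-ratio scaling lost the same Spry1 call and that of Fgf1 in AoV against UGR. With no filter on low values, Fgf6 with stage in AoV, Fgf7 with stage in AoD and Fgf15 between AoV and AoD at E10.5 were lost. So were Fgf4 between AoV and AoD at E9.5, and Fgf4 and Fgf1 in AoV against UGR.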
